A study of Mus musculus with 6 samples.

Results

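Rab GTPases are small GTP-binding proteins that give each membrane compartment of a cell its identity. The members described here are all genes of the deposited table whose symbol is Rab, a number and at most 1 letter and 1 further digit. That rule found 59 of the 17890 genes in the table, and 54 of the 59 passed the filter on low counts. The 23 other symbols that begin with Rab, which name regulators and effectors, were not taken as members.

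RNA was sequenced from mast cells of mouse lymph nodes, in 3 libraries from nodes that held tumour metastasis (mLN) and 3 libraries from uninvolved nodes (uLN). The genotype, strain and age of the mice, the tumour, any treatment and the way the mast cells were isolated were not given in the sources used here. Nothing in the labels says that the 3 libraries of a group came from separate animals, so the p-values below rest on a spread among libraries that may be technical. Library totals ran from 17643916 to 17799420 estimated counts. A floor of 3 counts per library corresponded to 0.164 to 0.172 CPM, the count scaled to library size.

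A Rab protein switches between a GDP-bound and a GTP-bound form. Guanine nucleotide exchange factors (GEFs) switch it on at a membrane, GTPase-activating proteins (GAPs) switch it off, and GDP dissociation inhibitors carry the inactive form through the cytosol. In its active form it binds effectors that tether, move or fuse vesicles. Mast cells store histamine, proteases and cytokines in secretory granules, which are related to lysosomes. In mouse mast cells Rab27a and Rab27b act in granule docking and release, and Rab37 and Rab44 also lie on or near the granule pathway.

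The libraries carried the mast cell transcripts their labels call for. Of 8 mast cell markers, 2 were higher in mLN, 5 were lower and 1 did not pass the test. Kit, the stem cell factor receptor, had 3086, 3173 and 3158 CPM in mLN and 7891, 7538 and 7839 CPM in uLN. Cpa3, a granule protease, averaged 10920.1 ± 799 CPM in mLN and 14734 ± 399.98 CPM in uLN (SD, n = 3 each). Fcer1a, the IgE-binding receptor chain, averaged 2138 ± 149 CPM in mLN and 3212 ± 98.4 CPM in uLN (SD, n = 3 each). In the first mLN library, 8 keratinocyte markers summed to 174 CPM and 7 fibroblast markers to 113 CPM. In the other 2 mLN libraries the keratinocyte sums were 16.2 and 36.9 CPM, and in the 3 uLN libraries 16.1, 16.2 and 6.61 CPM. The third mLN library differed most from the other mLN libraries over all genes: the median chi-square per gene was 2.58 and 2.48 against them, and 0.736 between the first and second. The uLN pairs had medians of 0.655 to 0.701, and every within-group pair had a mean of 2.06 or more, above the 1 that sampling noise alone would give. In bulk RNA, fewer cells of a type and less RNA per cell cannot be told apart.

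Over the whole family, Rab transcripts made up about the same share of the measured RNA in both kinds of node, while single members moved in either direction. Expressed per transcript length, as TPM, the 59 members summed to 5275, 5294 and 5265 TPM in mLN and to 5172, 5183 and 5187 TPM in uLN. The mLN sums lay slightly above the uLN sums in all 3 libraries. TPM are scaled to the same total in every library, so the amount of Rab RNA per cell was not measured. Differential expression was tested with edgeR's quasi-likelihood test, and a gene was called at a Benjamini-Hochberg adjusted p under 0.05 over all 12706 tested genes. By that rule 20 of the 54 tested members were higher in mLN, 17 were lower and 17 were not called. The 37 called members are 68.5% of those tested, against 67.3% of all tested genes (32.9% higher and 34.3% lower). The share of the Rab family called was therefore close to the background. The median log2 fold change was 0.08 over the tested members and -0.01 over all tested genes.

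A second call asked for a change beyond 1.5-fold, with edgeR's test against that fold and the same adjustment. It named 12 of the 54 members (22.2%), against 20.9% of all tested genes (11.7% higher and 9.18% lower). The 6 higher members were Rab20, Rab4a, Rab27a, Rab8b, Rab33a and Rab34, and the 6 lower members were Rab19, Rab11b, Rab36, Rab35, Rab7b and Rab29. Rab33a and Rab34 met the filter on low counts through mLN alone, so they had to differ to be tested. The same holds for Rab25, which was called higher by the first rule only. With DESeq2 the 1.5-fold calls of Rab33a, Rab34 and Rab29 were lost (adjusted p = 0.178, 0.105 and 0.471). The CPM values of the groups did not overlap for 37 of the 54 members, against 72.9% of all tested genes. Among members with a mean of at least 5 CPM over the 6 libraries, 30 of 43 were called (69.8%), against 73.8% of all genes at that level. Leaving out the first mLN library gave 35 called members, and leaving out the third gave 37.

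**Figure D1:**
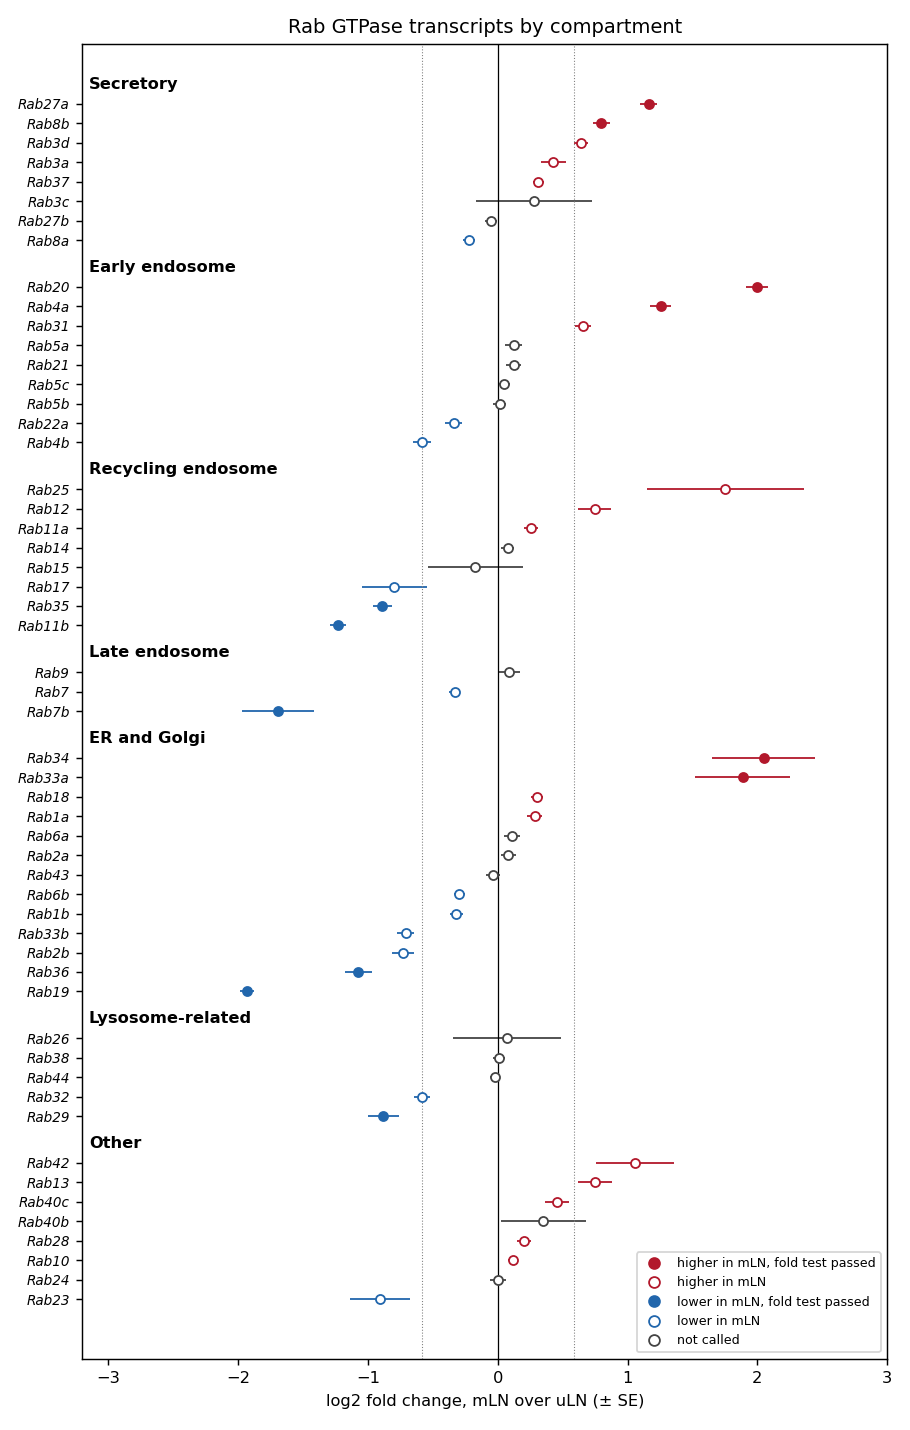
Log2 fold change of mLN over uLN for the 54 tested Rab genes, ordered within their compartment class; bars are standard errors, red and blue mark members called higher and lower in mLN at an adjusted p under 0.05, filled points passed the test against 1.5-fold, and dotted lines mark that fold. Rab34 and Rab20 lie highest and Rab19 lies lowest, and most members lie within 1 log2 unit of 0.

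The 4 most abundant Rab transcripts were the same in both groups, in a different order. Rab37 ranked 1st in mLN with 585.7 ± 35.8 TPM and 3rd in uLN with 461.7 ± 5.80 TPM (SD, n = 3 each). Rab44, a large Rab with EF hands that takes part in mouse mast cell degranulation, had 488 ± 7.48 TPM in mLN and 485 ± 8.15 TPM in uLN. Rab38, known from melanosome transport, had 405 ± 12.4 TPM in mLN and 394 ± 6.91 TPM in uLN. Rab7, the late endosome Rab, ranked 4th in mLN with 377 ± 2.46 TPM and 2nd in uLN with 466 ± 19.3 TPM. These 4 genes held 35.2% ± 0.698 of all Rab TPM in mLN and 34.9% ± 0.208 in uLN (SD, n = 3 each).

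The secretory Rabs (Rab3, Rab27, Rab37 and Rab8) act on vesicles that fuse with the plasma membrane. Of the 9 members of this class, 8 were tested: Rab37, Rab27a, Rab3d, Rab3a and Rab8b were higher in mLN, Rab8a was lower, and Rab27b and Rab3c were not called. The 6 called are 75.0% of those tested, against 67.3% of all tested genes. Their summed level was 1161, 1164 and 1114 TPM in mLN and 886, 885 and 878 TPM in uLN. As a share of all Rab TPM this was 21.7% ± 0.491 in mLN and 17.05% ± 0.103 in uLN (SD, n = 3 each), with no overlap between the groups. Rab37 (585.7 TPM in mLN, 461.7 TPM in uLN) and Rab8b (199.3 TPM in mLN, 112.4 TPM in uLN) made up most of the difference in the summed level. The median log2 fold change of the tested secretory members was 0.37. Leaving out the third mLN library gave a median of 0.46, and leaving out the first gave 0.35, with 5 higher and 1 lower member each time.

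Rab27a, which acts on mast cell granules, had 61.8, 58.2 and 66.5 CPM in mLN and 27.4, 28.1 and 27.9 CPM in uLN. Every mLN library lay above every uLN library. The gene (GRCm38 chr9:73044810-73097623, plus strand) rose 2.24-fold in mLN, a log2 fold change of 1.16 ± 0.06 (SE, n = 3 each, edgeR adjusted p = 3.84e-08). Its paralog Rab27b, which also acts on these granules, had 384, 399 and 372 CPM in mLN and 393, 388 and 417 CPM in uLN. The groups overlapped, and the log2 fold change was -0.05 ± 0.05 (edgeR adjusted p = 0.335). Exons of Rab27a overlap the processed pseudogene Gm27186 on the same strand, and its deposited counts were not whole numbers, so some of its reads were shared out between features.

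Rab37 had 564, 582 and 526 CPM in mLN and 452, 447 and 447 CPM in uLN. All mLN libraries were above all uLN libraries, and the lowest mLN value was in the third library. The gene (chr11:115091331-115162773, plus strand) rose 1.24-fold, a log2 fold change of 0.31 ± 0.05 (SE, n = 3 each, edgeR adjusted p = 7.99e-05).

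Rab8b, which moves cargo from the Golgi to the cell surface, had 323, 332 and 390 CPM in mLN and 200, 200 and 202 CPM in uLN. The uLN libraries were nearly equal and the third mLN library was the highest. The gene (chr9:66843609-66919705, minus strand) rose 1.74-fold, with a log2 fold change of 0.80 ± 0.07 (SE, n = 3 each, edgeR adjusted p = 1.34e-06). Rab8a, with a like role in transport to the surface and to cilia, had 103, 99.2 and 96.7 CPM in mLN and 118, 114 and 117 CPM in uLN. It moved the other way, with a log2 fold change of -0.22 ± 0.05 (edgeR adjusted p = 0.00117).

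The Rab3 genes are best known from synaptic and exocrine vesicles, and Rab3d is the member of exocrine and mast cell granules. Rab3d had 101, 99.3 and 93.3 CPM in mLN and 66.0, 60.8 and 61.7 CPM in uLN, without overlap. It rose 1.56-fold, with a log2 fold change of 0.64 ± 0.05 (SE, n = 3 each, edgeR adjusted p = 1.27e-06), and did not pass the test against 1.5-fold. Rab3a, the synaptic vesicle member, had 17.6, 16.2 and 16.5 CPM in mLN and 11.2, 14.1 and 12.1 CPM in uLN, a log2 fold change of 0.43 ± 0.10 (edgeR adjusted p = 0.00219). Exons of Rab3a overlap those of Mpv17l2 on the opposite strand. Rab3c had 12.1, 11.99 and 6.76 estimated counts in mLN and 5.44, 13.5 and 6.75 in uLN, and was not called (edgeR adjusted p = 0.605). Rab3b had 1, 2 and 0 counts in mLN and 1, 2 and 1 counts in uLN, below the floor of 3 counts in every library.

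**Figure D2:**
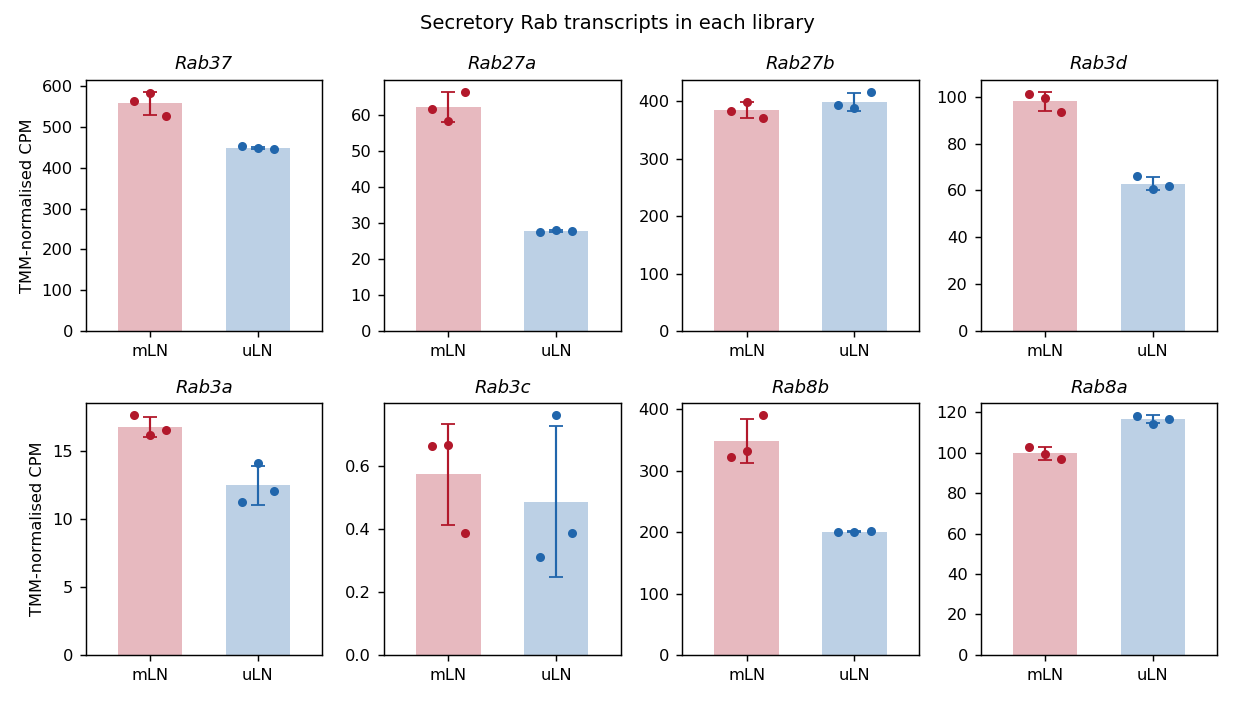
TMM-normalised CPM of the secretory Rab genes in each library, with mLN left of uLN in every panel; points are libraries, bars are means and whiskers are SDs (n = 3 each). Rab27a, Rab8b, Rab37, Rab3d and Rab3a are higher in all 3 mLN libraries, Rab8a is lower in all 3, and the Rab27b groups overlap.

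The endosomal Rabs did not move in a common direction. Of 21 members 20 were tested, of which 6 were higher in mLN, 7 were lower and 7 were not called. The 13 called are 65.0% of those tested, near the 67.3% of all tested genes. The higher members include the recycling Rab25, which met the filter on low counts through mLN alone. Their median log2 fold change was 0.06, beside 0.37 for the secretory members and -0.01 for all tested genes. The endosomal sum was 1790, 1779 and 1823 TPM in mLN and 1805, 1840 and 1844 TPM in uLN, so the groups overlapped. Leaving out the first mLN library gave 5 higher and 7 lower members.

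Within this class the sums by station moved in different directions. The 9 members of the early endosome, where internalised receptors are sorted (3 higher, 2 lower, 4 not called), summed to 882 ± 10.3 TPM in mLN and 784 ± 5.07 TPM in uLN (SD, n = 3 each). The 8 recycling members (3 higher, 3 lower, 2 not called), which return membrane to the surface, summed to 503 ± 12.9 TPM in mLN and 547 ± 5.95 TPM in uLN. Of the early members 55.6% were called, and of the recycling members 75%, against 67.3% of all tested genes. The 4 late endosome members summed to 412 ± 2.21 TPM in mLN and 499 ± 20.9 TPM in uLN. For each of these sums the 3 mLN libraries lay on 1 side of the 3 uLN libraries, and the difference between the stations was not tested. Rab20, at 69.1 TPM in mLN and 16.996 TPM in uLN, carried much of the difference in the early endosome sum. Rab7, at 377 TPM in mLN and 466 TPM in uLN, carried about all of it in the late endosome sum. Several recycling members moved, in both directions. Rab11b (50.5 TPM in mLN, 116 TPM in uLN) and Rab35 (53.7 TPM in mLN, 97.4 TPM in uLN) fell. Rab12 rose (77.2 TPM in mLN, 45.1 TPM in uLN).

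**Figure D3:**
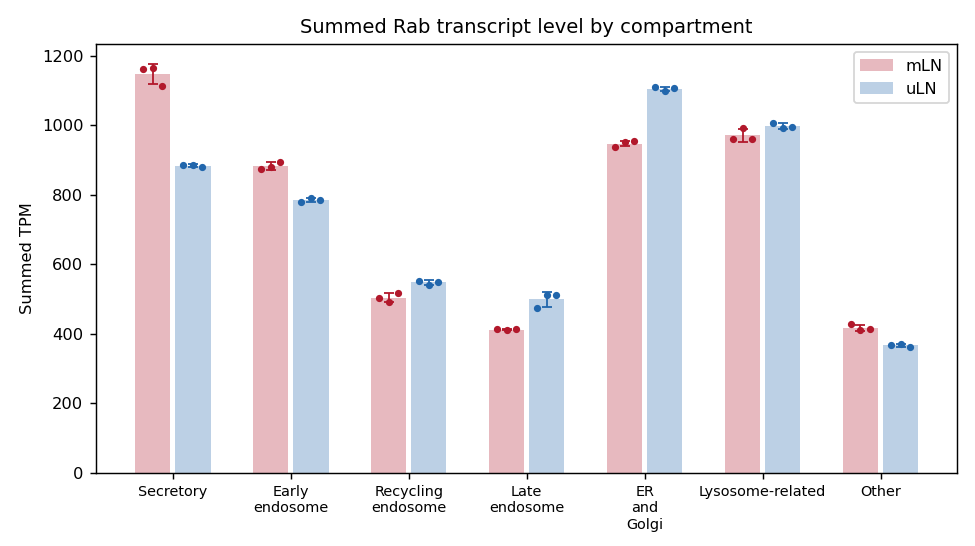
Summed TPM of the Rab genes of each compartment class in mLN and uLN; points are libraries, bars are means and whiskers are SDs (n = 3 each). The secretory, early endosome and other classes are higher in all mLN libraries, while the recycling, late endosome, and ER and Golgi classes are lower.

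Rab20, an early endosome and phagosome Rab, had 33.2, 36.3 and 37.1 CPM in mLN and 8.31, 9.59 and 8.85 CPM in uLN. Every mLN library was above 33 CPM and every uLN library was below 10 CPM. The gene (chr8:11453390-11478640, minus strand) rose 3.98-fold, a log2 fold change of 1.99 ± 0.08 (SE, n = 3 each, edgeR adjusted p = 5.63e-09). Its exons overlap E230013L22Rik on the opposite strand, and whether the counting used strand was not given in the sources used here.

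Rab20 is also expressed by macrophages, so the macrophage markers are given beside it. The 9 macrophage markers summed to 216, 214 and 246 CPM in mLN and to 136, 184 and 162 CPM in uLN. Of the 8 that were tested, Cd68 and Adgre1 were higher in mLN and Csf1r, C1qb, C1qc, Cd163, Lyz2 and Mrc1 were lower. C1qa stayed at or under 0.621 CPM in every library. The part of such cells in the Rab20 result was not tested.

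Rab4a and Rab4b drive fast recycling of receptors from early endosomes. Rab4a had 34.1, 32.7 and 39.0 CPM in mLN and 14.7, 14.8 and 14.8 CPM in uLN. All mLN libraries lay above all uLN libraries, and the gene (chr8:123805846-123835291, plus strand) rose 2.39-fold, with a log2 fold change of 1.26 ± 0.08 (SE, n = 3 each, edgeR adjusted p = 1.39e-07). Rab4b had 37.4, 39.6 and 33.3 CPM in mLN and 55.6, 54.8 and 55.0 CPM in uLN. It was lower in every mLN library, with a log2 fold change of -0.59 ± 0.07 (edgeR adjusted p = 1.28e-05). Exons of Rab4b overlap the protein-coding gene Gm21983 on the same strand.

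Of the remaining early endosome members, 1 was higher, 1 was lower and 4 were not called. Rab31, a Rab of trans-Golgi and endosome transport, rose by a log2 fold change of 0.66 (51.0, 47.8 and 53.7 CPM in mLN, 32.4, 33.4 and 31.0 CPM in uLN; edgeR adjusted p = 3.63e-06). Rab22a, which acts in early endosome recycling, had a log2 fold change of -0.34 (edgeR adjusted p = 0.000838). Rab5a, Rab5b and Rab5c, which drive fusion of early endosomes, had log2 fold changes of 0.12, 0.01 and 0.05 and were not called, nor was Rab21, an integrin-trafficking Rab, at 0.12.

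Among recycling Rabs, the lower members were Rab11b, Rab35 and Rab17. Rab11b, which works at the pericentriolar recycling compartment, had 116, 122 and 104 CPM in mLN and 274, 260 and 267 CPM in uLN. The groups lay far apart, and the gene (chr17:33742484-33760486, minus strand) fell by 1.23 on the log2 scale (SE 0.06, n = 3 each, edgeR adjusted p = 1.46e-08), so that uLN was 2.35-fold higher. Exons of Rab11b overlap Gm17251 on the opposite strand. Rab35, which returns cargo to the plasma membrane by a fast route, had 59.1, 60.0 and 48.5 CPM in mLN and 104, 102 and 105 CPM in uLN. All mLN libraries were lower, the third the lowest, and the log2 fold change of the gene (chr5:115631904-115647158, plus strand) was -0.89 ± 0.07 (edgeR adjusted p = 1.26e-06).

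The higher recycling members were Rab11a, Rab12 and Rab25. Rab11a had 79.8, 77.5 and 80.2 CPM in mLN and 62.8, 65.3 and 71.0 CPM in uLN, a log2 fold change of 0.25 ± 0.06 (SE, n = 3 each, edgeR adjusted p = 0.0018). Rab12, which has been tied to transferrin receptor turnover and to granule transport in a rat mast cell line, had 52.2, 52.2 and 72.8 CPM in mLN and 35.5, 33.6 and 36.5 CPM in uLN (log2 fold change 0.75, edgeR adjusted p = 0.000885). The third mLN library was far above the other 2 for Rab12, and all 3 were above uLN. Rab25, an epithelial member of the Rab11 group, had 48, 19 and 10 counts in mLN and 3, 9 and 10 counts in uLN. It met the filter on low counts through mLN alone. Its groups touched at 10 counts, and its highest value was in the first mLN library, which also held the highest keratinocyte and fibroblast marker sums. Without that library its fold was 1.94 in place of 3.37 and it was not called (edgeR adjusted p = 0.136).

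Of the late endosome Rabs, Rab7, which controls fusion with lysosomes, had 299, 300 and 304 CPM in mLN and 360, 386 and 391 CPM in uLN. It fell by 0.33 on the log2 scale (SE 0.04, n = 3 each, edgeR adjusted p = 4.07e-05), with no overlap. Rab7b, which acts between endosomes and the trans-Golgi, had 24, 14 and 16 counts in mLN and 44, 72 and 56 counts in uLN. Its log2 fold change was -1.69 ± 0.28 (edgeR adjusted p = 0.00021), from few reads. Rab7b (chr1:131688681-131715443) and Rab29 (chr1:131867210-131872887) lie 151767 bases apart, and both were among the 6 members lower beyond 1.5-fold. That call of Rab29 was also lost without the first mLN, first uLN or second uLN library (edgeR adjusted p = 0.0513, 0.0625 and 0.0749). Rab9 was not called, and Rab9b, at 0 to 4.44 estimated counts per library, was not tested.

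**Figure D4:**
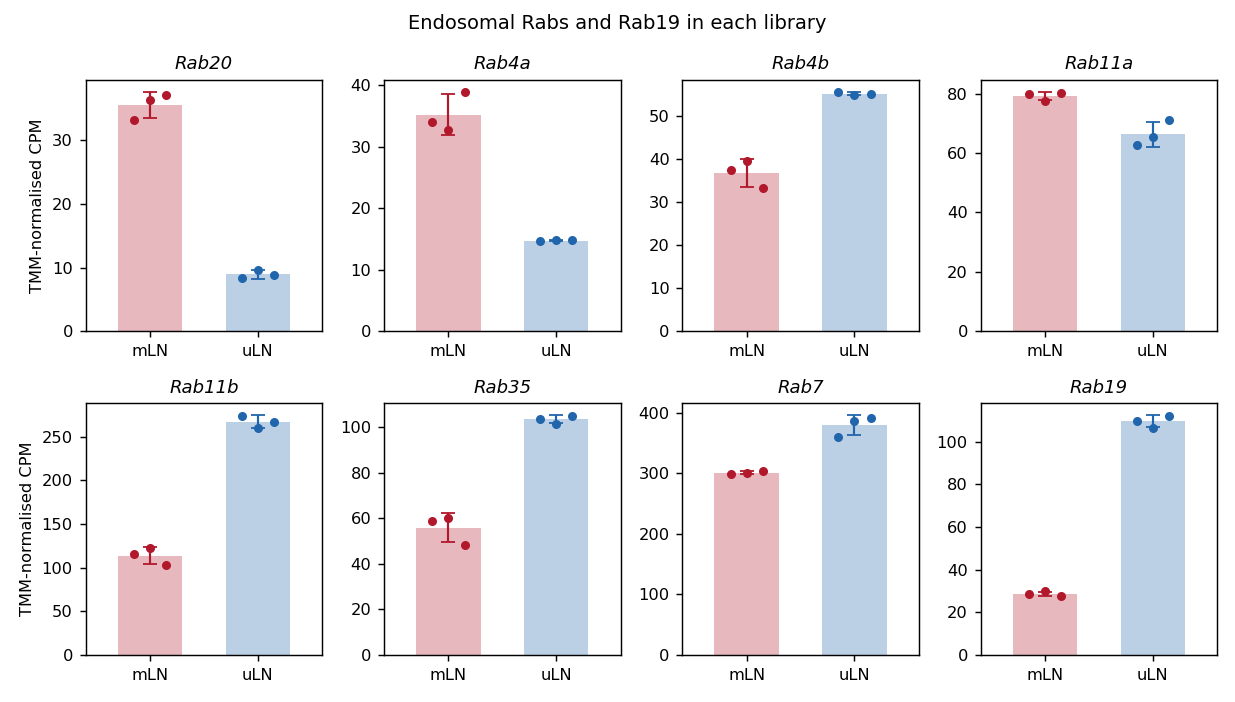
TMM-normalised CPM of selected endosomal Rab genes and of Rab19 in each library, with mLN left of uLN; points are libraries, bars are means and whiskers are SDs (n = 3 each). Rab20, Rab4a and Rab11a are higher in all mLN libraries, and Rab4b, Rab11b, Rab35, Rab7 and Rab19 are lower in all of them.

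The Rabs of the endoplasmic reticulum and Golgi, which move newly made proteins forward and recycle Golgi membrane, summed to 947 ± 8.46 TPM in mLN and 1104 ± 5.92 TPM in uLN (SD, n = 3 each). Of 16 members 13 were tested, and 4 were higher, 6 were lower and 3 were not called (76.9% called, against 67.3% of all tested genes). The higher members include Rab33a and Rab34, which met the filter on low counts through mLN alone. Rab19, a little characterised Golgi-associated Rab, had 28.6, 29.7 and 27.7 CPM in mLN and 110, 106 and 112 CPM in uLN. The gene (chr6:39380709-39390666, plus strand) ranked 32nd of the family by TPM in mLN and 8th in uLN. It fell by 1.93 on the log2 scale (SE 0.05, n = 3 each, edgeR adjusted p = 3.53e-10), and uLN was 3.82-fold higher. Rab19 alone, at 49.3 ± 2.19 TPM in mLN and 184 ± 3.14 TPM in uLN, thus made up most of the difference in the summed level of its class.

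Rab36 (chr10:75036895-75054748), a Golgi Rab related to Rab34, had 19.8, 18.0 and 14.0 CPM in mLN and 36.5, 35.0 and 37.8 CPM in uLN, a log2 fold change of -1.07 ± 0.11 (SE, n = 3 each, edgeR adjusted p = 5.94e-06). Rab34 (chr11:78188427-78192193), which acts at the Golgi and in ciliogenesis, had 28, 27 and 18 counts in mLN and 4, 9 and 4 counts in uLN. Rab33a (chrX:48513663-48530240), a Golgi Rab, had 21, 30 and 18 counts in mLN and 7, 5 and 6 counts in uLN. Rab34 and Rab33a were called higher (edgeR adjusted p = 0.000678 and 0.000699), with log2 fold changes of 2.05 ± 0.39 and 1.89 ± 0.36. Both had fewer than 10 counts in every uLN library, so they met the filter through mLN alone.

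Among the abundant Golgi members, Rab1a rose by 0.29 and Rab1b fell by 0.32 on the log2 scale (edgeR adjusted p = 0.00089 and 0.000112); both act from the endoplasmic reticulum to the Golgi. Rab2b fell by 0.73, Rab33b fell by 0.71 and Rab6b fell by 0.30, while Rab18, a Rab of lipid droplets and the endoplasmic reticulum, rose by 0.30. Rab2a, Rab6a and Rab43 had log2 fold changes of 0.08, 0.11 and -0.04 and were not called. Rab30, Rab39 and Rab39b had at most 10 counts in any library and were not tested.

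Of the 5 lysosome-related organelle Rabs, Rab29 and Rab32 were lower and Rab26, Rab38 and Rab44 were not called. The called members are 40% of the class, against 67.3% of all tested genes. Rab29, which recruits the kinase LRRK2 to membranes, had 6.74, 7.84 and 6.37 CPM in mLN and 13.4, 13.6 and 11.6 CPM in uLN, without overlap (log2 fold change -0.88 ± 0.12, SE, n = 3 each, edgeR adjusted p = 4.03e-05). Rab32, which works with Rab38 on melanosome cargo, had 49.4, 51.0 and 44.0 CPM in mLN and 75.0, 69.5 and 72.2 CPM in uLN. Rab44 had 730, 751 and 739 CPM in mLN and 763, 738 and 749 CPM in uLN, and the groups overlapped. The log2 fold change of Rab44 was -0.02 ± 0.04. Because Rab38, Rab32 and Rab27a are also melanocyte Rabs, 8 melanocyte markers were summed: they held 160, 161 and 170 CPM in mLN and 231, 240 and 235 CPM in uLN, mostly from Mitf, which mast cells express. Tyrp1, Dct and Mlana stayed at or under 0.746 CPM except in the first mLN library, where Dct reached 4.49 and Tyrp1 2.85 CPM. Of the 3 tested melanocyte markers, Mitf was lower in mLN, Tyr was not called and Pmel was higher, with 3.04, 1.41 and 1.46 CPM in mLN and 0.636, 1.14 and 0.697 CPM in uLN (edgeR adjusted p = 0.0129). The part of such cells in the Rab27a, Rab32 and Rab38 values was not tested.

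Of the 8 other members, 5 were higher (Rab10, Rab13, Rab28, Rab40c and Rab42), Rab23 was lower, and Rab24 and Rab40b were not called. That is 75% called, against 67.3% of all tested genes. Rab13, a Rab of epithelial junctions, had 8.54, 9.84 and 9.13 CPM in mLN and 6.02, 5.53 and 4.83 CPM in uLN (log2 fold change 0.75, edgeR adjusted p = 0.000297). Rab10, an exocytic Rab known from glucose transporter delivery, changed little, with a log2 fold change of 0.12 ± 0.04 (edgeR adjusted p = 0.0235). Its call was lost without the expression filter, without the first mLN library and without any 1 uLN library (edgeR adjusted p = 0.0582 to 0.112). Rab23, a negative regulator of Hedgehog signalling, had 85, 58 and 37 counts in mLN and 105, 118 and 107 counts in uLN (log2 fold change -0.91, edgeR adjusted p = 0.00492).

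To compare closely related Rabs, each member's share of its subfamily's TPM was computed in every library, for 12 subfamilies. In 5 of them, Rab1, Rab4, Rab8, Rab11 and Rab33, at least 1 member was called higher and at least 1 lower. Of all tested genes, 32.9% were called higher and 34.3% lower. In 9 of the 12 a member's share did not overlap between mLN and uLN, while the CPM of 72.9% of all tested genes did not overlap either. Rab33 is in both counts only through Rab33a, which met the filter on low counts through mLN alone. With 3 libraries against 3 the exact two-sided permutation test cannot go below p = 0.1, which those 9 shares reached (0.189 after Benjamini-Hochberg adjustment over 17 shares).

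Rab4a made up 43.4%, 41.0% and 49.6% of Rab4 TPM in mLN and 18.1%, 18.5% and 18.4% in uLN. The Rab4 sum itself was 150.7 ± 2.58 TPM in mLN and 150.3 ± 1.54 TPM in uLN (SD, n = 3 each), so the makeup of the pair differed at about equal total level. Rab11a made up 64.6% ± 2.29 of Rab11a and Rab11b TPM in mLN and 39.4% ± 1.79 in uLN, and their sum was lower in mLN, at 142 ± 4.84 TPM against 191 ± 3.25 TPM in uLN. Rab27a made up 26.0% ± 1.97 of Rab27 TPM in mLN and 13.2% ± 0.457 in uLN, with Rab27b the more abundant paralog in both.

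Rab8b made up 77.0% ± 2.28 of Rab8 TPM in mLN and 62.4% ± 0.437 in uLN. Rab1a made up 49.0% ± 2.47 of Rab1 TPM in mLN and 38.7% ± 0.203 in uLN, while the Rab1 sum overlapped between the groups (408 ± 12.1 TPM in mLN, 416 ± 6.21 TPM in uLN). The shares of Rab2a (88.7% ± 1.79 in mLN, 81.8% ± 0.568 in uLN) and Rab6a (62.2% ± 1.61 in mLN, 55.5% ± 1.18 in uLN) were also higher in mLN at similar subfamily sums. By contrast, Rab5a held 15.4% ± 0.863 of Rab5 TPM in mLN and 14.6% ± 0.328 in uLN, and Rab3d 69.9% ± 0.834 of Rab3 TPM in mLN and 66.7% ± 3.47 in uLN, and these shares overlapped. A share by TPM rests on 1 transcript length per gene: without scaling by length, the mLN minus uLN difference was 7.40 percentage points for Rab27a in place of 12.8, and 21.2 for Rab11a in place of 25.2.

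**Figure D5:**
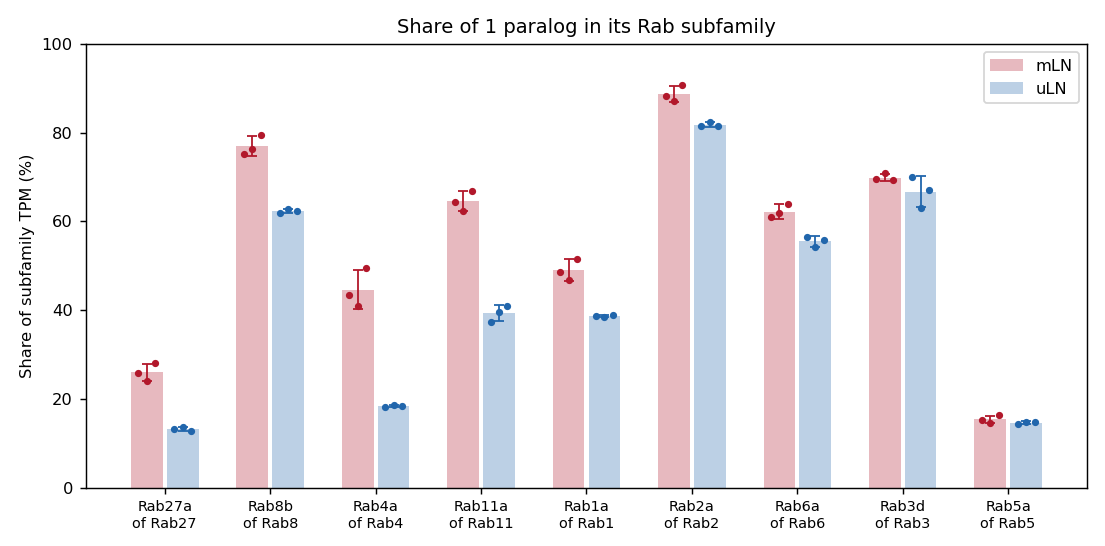
Share of each subfamily's TPM held by 1 of its members, in percent, in mLN and uLN; points are libraries, bars are means and whiskers are SDs (n = 3 each). The Rab4a share is near 45% in mLN and near 18% in uLN, and the Rab11a share is near 65% in mLN and near 39% in uLN.

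The genes that switch Rabs on and off and bind them were counted from fixed lists. Of 140 tested regulators and effectors, 56 were higher in mLN and 43 lower, that is 70.7% called, near the 67.3% of all tested genes. Of 43 tested GEF genes 15 were higher and 15 lower (69.8% called). Madd, a GEF of Rab3 and Rab27, averaged 131 ± 3.18 CPM in mLN and 308 ± 10.6 CPM in uLN (SD, n = 3 each), a log2 fold change of -1.24 ± 0.05 (edgeR adjusted p = 2.17e-09). It was thus lower while Rab27a, Rab3d and Rab3a were higher. Dennd3, a GEF of Rab12, averaged 44.4 ± 4.76 CPM in mLN and 11.7 ± 0.645 CPM in uLN (edgeR adjusted p = 1.34e-08), and Rab12 was higher too. Dennd1c, a GEF of Rab35, averaged 162 ± 13.5 CPM in mLN and 311 ± 8.40 CPM in uLN (edgeR adjusted p = 1.05e-07), and Rab35 was lower too. Dennd1a and Dennd1b, of the same family and named after their values were seen, were not called. Their log2 fold changes were -0.01 and 0.02 (edgeR adjusted p = 0.883 and 0.744). Dennd2d, another DENN domain GEF, averaged 21.6 ± 1.27 CPM in mLN and 1.597 ± 0.677 CPM in uLN (edgeR adjusted p = 4.62e-08).

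Of 38 tested GAP genes 18 were higher and 12 lower (78.9% called, against 67.3% of all tested genes). Of the 38, 8 (21.1%) passed the test against 1.5-fold, all higher in mLN, against 20.9% of all tested genes (11.7% higher). Grtp1, a TBC domain protein, averaged 15.2 ± 1.30 CPM in mLN and 0.743 ± 0.233 CPM in uLN (SD, n = 3 each; log2 fold change 4.34 ± 0.18, edgeR adjusted p = 5.63e-09). Tbc1d16, a GAP of Rab4a, averaged 15.6 ± 1.52 CPM in mLN and 1.81 ± 0.0502 CPM in uLN (log2 fold change 3.10 ± 0.13, edgeR adjusted p = 6.46e-09). Rabgap1l, a GAP of Rab22a, and Usp6nl, a GAP of Rab5, had log2 fold changes of 1.13 and 1.15 (edgeR adjusted p = 9.77e-08 and 1.69e-07). None of the 7 genes that deliver Rabs to membranes passed the test against 1.5-fold. At the plain test 3 were higher and 2 lower (71.4% called, against 67.3% of all tested genes). Gdi2, a GDP dissociation inhibitor, averaged 346 ± 25.7 CPM in mLN and 309.8 ± 4.33 CPM in uLN (SD, n = 3 each), a log2 fold change of 0.16 (edgeR adjusted p = 0.0187). Rabac1, which helps to release Rabs from the inhibitor, fell by 0.27, and Rabggta, a subunit of the enzyme that adds their lipid anchor, fell by 0.26 on the log2 scale (edgeR adjusted p = 0.000259 and 0.00464). Rabggtb, the other subunit of that enzyme, named after its values were seen, rose by 0.58 (edgeR adjusted p = 0.000122).

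Of 22 tested effectors of secretory Rabs 6 were higher and 7 lower (59.1% called, against 67.3% of all tested genes). Sytl1, a Rab27 effector that links granules to the plasma membrane, averaged 63.6 ± 1.13 CPM in mLN and 28.4 ± 1.71 CPM in uLN (SD, n = 3 each; log2 fold change 1.16 ± 0.06, edgeR adjusted p = 2.57e-08). Micall2, an effector of Rab13 and Rab8, had a log2 fold change of 1.35, Ehbp1, a Rab8 and Rab10 effector, 1.12, and Ocrl, an inositol phosphatase that binds several Rabs, 0.84. Sytl2, another Rab27 effector named here after its values were seen, fell by 0.59 on the log2 scale (edgeR adjusted p = 3.36e-06). So did the Rab27 effectors Sytl3 and Mlph, named in the same way, by 0.51 and 0.60 (edgeR adjusted p = 1.66e-05 and 1.44e-05). Unc13d, the Rab27 effector Munc13-4 that primes granules for fusion and also named after its values were seen, averaged 267 ± 14.1 CPM in mLN and 287 ± 3.79 CPM in uLN and was not called (edgeR adjusted p = 0.0755).

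Of 30 tested effectors of endosomal Rabs 14 were higher and 7 lower (70.0% called, against 67.3% of all tested genes). Of the 7 that passed the test against 1.5-fold (23.3%, against 20.9% of all tested genes) 6 were higher. Rab11fip5 and Rab11fip1, which bind Rab11, averaged 14.96 ± 0.333 and 15.01 ± 0.988 CPM in mLN and 5.19 ± 0.212 and 4.87 ± 0.454 CPM in uLN (SD, n = 3 each). Their log2 fold changes were 1.53 ± 0.10 and 1.62 ± 0.11 (edgeR adjusted p = 1.35e-07 and 2.35e-07), while Rab11a rose by 0.25 and Rab11b fell by 1.23. Rilpl2, of the RILP family, had a log2 fold change of 1.63 and Plin3, a Rab9 effector also known on lipid droplets, 0.85 (edgeR adjusted p = 3.20e-07 and 1.12e-07). Rufy1, a Rab4 and Rab14 effector named after its values were seen, was the 1 effector lower beyond 1.5-fold, with 32.6, 33.8 and 24.8 CPM in mLN and 56.8, 54.9 and 57.5 CPM in uLN (log2 fold change -0.89, edgeR adjusted p = 1.40e-05).

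The promoters of the members were read for the letters ACGTG, the core of the sites that hypoxia-inducible and E-box factors bind, because Rab20 is known as a hypoxia-responsive gene. RefSeq promoter sequences (GRCm38.p6) were found for 48 of the 59 genes, as 60 promoters, and the 250 bases before each start were searched on both strands. ACGTG was present in 10 of the 60 Rab promoters (16.7%) and in 16.6% of all 32851 promoters. The palindrome CACGTG, which contains ACGTG, was present in 5 of the 60 and in 6.02% of all promoters. The letters GATAA, which GATA factors bind, were present in 12 of 60 and in 22.6% of all, and TGANTCA, which AP-1 binds, in 2 of 60 and in 6.75% of all. The Rab promoters were thus near the share over all promoters for ACGTG. These windows show the motif in 2 members that were higher (Rab20 and Rab27a), 1 that was lower (Rab29) and 2 that were not called (Rab5a and Rab21), with the motif in capitals, written 5′ to 3′ on the gene's strand.
Rab20, chr8:11478669-11478698, minus strand: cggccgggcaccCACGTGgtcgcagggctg
Rab27a, chr9:73063898-73063927, plus strand: cttgCACGTGctcctccgtctgtctgaacc
Rab29, chr1:131867130-131867159, plus strand: ttcccaagagtgtACGTGgcaagtcgccac
Rab5a, chr17:53478987-53479016, plus strand: aattggagaagaCACGTGacgcaaccccac
Rab21, chr10:115315604-115315633, minus strand: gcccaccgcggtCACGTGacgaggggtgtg
Rab27a has 2 promoter entries: the window shown belongs to the start inside the gene's annotated span, and the other entry held none of the 4 motifs. The motif begins 46 bases before the start in Rab20 and 30 bases before it in Rab21. That Rab21 start also lies inside its gene's annotated span (chr10:115289862-115317419, minus strand). The windows shown are a selection. The motif was also present in Rab40c, which was called higher, and in Rab24, which was not called. It was present too in Rab7, Rab17 and Rab23, which were called lower. Of these lower members, Rab23 (log2 fold change -0.91) also held the palindrome. The motif was thus found in members that moved in either direction. Of the members called beyond 1.5-fold that have a promoter entry, 2 of 5 higher and 1 of 4 lower ones held ACGTG, and so did 7 of 35 that were not so called.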

How the data were processed

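The values are expected counts per gene, deposited by the authors as a single unscaled table with a column for each library. In each library 32.2% to 32.8% of them were fractional, and all were rounded for the tests. The submitters' processing notes name cutadapt, FastQC, TopHat and build GRCm38 and give no versions. Libraries were made from RNeasy-extracted RNA for DNBSEQ sequencing, per the labels' protocols. The tool and strand setting used for counting were not given in the sources used here. Of 17891 rows, 1 names no gene and was left out.

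Tests used edgeR 4.0.16 in R 4.3.3 (quasi-likelihood, TMM scaling, default expression filter), which kept 12706 of 17890 genes, 54 of them Rab members. The common biological coefficient of variation was 6.49%. CPM are counts over TMM-scaled library size, and TPM use the longest protein-coding transcript of each gene in GENCODE M21, which was found for all 59 members. Standard errors are the log2 fold change divided by the square root of the quasi-likelihood F statistic. The scripts were tested on simulated data. Deposited counts of 18 members were not whole, and exons of 20 members overlap another annotated gene. Intervals of reads and the floor of 3 counts cover counting error only.

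Members, compartment classes and gene lists were chosen with earlier results of these data known. Members called beyond 1.5-fold and all secretory members were given value by value, and other members by class. Up to 4 genes per regulator list were named, those past the 1.5-fold test first, and otherwise the most abundant; 1 such gene is not reported here. Same-numbered mLN and uLN libraries did not deviate together (correlations of 0.0248, -0.155 and -0.0133), so the numbers were not taken to pair the libraries. Alternatives were RLE, upper quartile and total-count scaling, no expression filter, DESeq2 1.42.0, a replicate block, shares without length scaling, and leaving out each library.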

Additional observations from a re-analysis of the deposited data

How the results depend on the processing

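The counts of called members moved little. Leaving out 1 library at a time gave 34 to 38 called Rab members, 6 secretory and 11 to 14 endosomal ones, and 7871 to 8922 called genes over all. With a replicate block, although the numbers do not pair the libraries, 37 Rab members were called, 12 of them beyond 1.5-fold, and no call changed. The 12 members beyond 1.5-fold were the same under RLE, upper quartile and total-count scaling; DESeq2 kept 9 and lost Rab29, Rab33a and Rab34, and no expression filter added Rab33b. Leaving out libraries gave 11 to 15. Rab29 was lost without the first mLN, the first uLN or the second uLN library. Only 2 subfamily shares moved by more than their spread: without length scaling the mLN minus uLN difference was 7.40 percentage points for Rab27a and 21.2 for Rab11a. The secretory median log2 fold change was 0.33 to 0.57 with a library left out and 0.29 without the expression filter. The all-gene median stayed within -0.03 to 0.02 under the other settings that keep all libraries.

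Calls near the threshold depended on the setting. Rab10 was lost without the filter (adjusted p = 0.112) and without the first mLN library or any 1 uLN library (0.0582 to 0.0948). Rab17 was lost in DESeq2 (0.0890) and without the first uLN library (0.0605). Rab25 was lost without the first mLN (0.136), first uLN (0.0916) or second uLN library (0.0573), and Gdi2 without uLN library 1 (0.0841) or 3 (0.0631). With total-count scaling Rab14, Rab21, Rab5a and Rab6a were called, and so was Unc13d without the filter (0.0359) and Rab21 without the second mLN library (0.0186). Uncalled members near 0 changed sign. Without the filter the log2 fold change was -0.027 for Rab24, -0.017 for Rab38 and -0.012 for Rab5b; with the block it was -0.00073 for Rab24; with total-count scaling it was 0.0077 for Rab44. Leaving out 1 library gave -0.043 to 0.043 for Rab24, -0.44 to 0.29 for Rab26, -0.0081 to 0.047 for Rab38, -0.071 to 0.024 for Rab43 and -0.036 to 0.057 for Rab5b. The cause of these changes was not tested. Values of members with few counts (Rab33a, Rab34, Rab7b, Rab25, Rab3c) are limited by depth.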
